A study of Mus musculus with 8 samples.

Results

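A set of 7 transcripts of the protein-shedding machinery were followed in Treg cells of the mouse large intestine with and without the transcription factor Ahr, namely the proteases Adam17, Adam10, Adam8, Adam9, Adam15 and Adam19 and the ADAM17 partner Rhbdf2. They are the rows of the gene count table with these names, 7 of 19191 rows. The set was chosen by name with the log2 fold changes and adjusted p-values of KO against WT in these RNA counts already known, so the values of these 7 genes under that contrast are a description and no evidence of change. The cells were regulatory T cells, the suppressive CD4 T cells that carry Foxp3, isolated by cell sorting out of lamina propria tissue of C57BL/6 mice. Ahr is a transcription factor that responds to dietary and microbial ligands. The WT group had the genotype Ahrf/+ Foxp3Yfp-Cre and the KO group the genotype Ahrf/- Foxp3Yfp-Cre, with 2 RNA-seq libraries each. All 4 samples thus carried a floxed Ahr allele and a Cre recombinase made from the Foxp3 locus, which acts in cells that express Foxp3. Treg cells of the WT group kept 1 intact allele, and cells without Cre had 1 intact and 1 floxed allele in WT mice but only the floxed allele beside a null allele in KO mice. What the deletion does inside Treg cells and what it does through other cells cannot be told apart. The sources used here give no age, sex or number of animals for each library, so the spread between libraries may be technical.

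ADAM proteases are membrane-anchored zinc metalloproteases that cut the outer part off other membrane proteins, a process called shedding. ADAM17, also called TACE, releases TNF, TNF receptors, the IL-6 receptor and ligands of the EGF receptor, and ADAM10 makes the first cut in Notch receptors. ADAM17 leaves the endoplasmic reticulum with the help of the inactive rhomboid proteins, one of which is encoded by Rhbdf2, and ADAM10 with the help of tetraspanins of the TspanC8 group. Shedding is largely controlled after transcription, by trafficking, by removal of the prodomain and by inhibitors, so transcript levels are not a measure of protease activity.

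The 4 libraries held 26862922 to 62402450 gene counts, with the deeper library being replicate 2 in both genotypes. Counts over the Ahr gene were 581 and 539 CPM (counts scaled to a library total of 1000000) in WT and 536 and 518 CPM in KO. A gene count does not show single exons, so it checked neither the deletion nor the labels. All 7 Treg and T cell markers were detected in every library, Foxp3 among them at 280 and 252 CPM (WT) against 250 and 259 CPM (KO). Markers of other cells were present at lower summed levels. Those of macrophages and dendritic cells (8 of 9 found, all with counts) summed to 136 and 61.5 CPM (WT) against 97.1 and 42.6 CPM (KO). Those of epithelium (8 of 8 found) summed to 19.5 and 19.2 CPM (WT) against 18.4 and 26.6 CPM (KO). Most of that sum was Epcam, while Krt8 had 0 and 0.126 CPM (WT) against 1.01 and 3.86 CPM (KO) and was called higher by DESeq2 (adjusted p = 8.00e-04), while the authors' deposited table lists 5.35e-05 for it. Krt19 had 0.149 and 0 CPM (WT) against 0.554 and 2.44 CPM (KO). Markers of B and plasma cells (6 of 7 found) summed to 140 and 265 CPM (WT) against 146 and 355 CPM (KO), most of it Igj, and the 3 of 5 neutrophil markers found reached at most 0.473 CPM in sum in any library. All levels of single genes are CPM with TMM scaling and are not divided by transcript length, so they are compared between libraries and not between genes.

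Adam17, the main sheddase of TNF, was the member with the largest difference. Its counts were 4666 and 10546 in WT and 7480 and 14042 in KO, which were 174 and 166 CPM (WT) against 244 and 266 CPM (KO). Both KO libraries lay above both WT libraries, and the gap between the groups was wider than the distance between the libraries of either group. The group means were 170 ± 5.75 CPM (WT) and 255 ± 15.5 CPM (KO), each with the SD of n = 2, a fold of 1.50. The log2 fold change was 0.59 ± 0.09 (standard error) with a 95% interval of 0.36 to 0.81. This value stood at percentile 96.7 of the 14274 genes tested, whose median was 0.01. The Y-linked gene Ddx3y, picked after its values were seen, also had non-overlapping groups, with 155 and 135 CPM (WT) against 208 and 261 CPM (KO). DESeq2 called Ddx3y higher in KO too (adjusted p = 0.00717). The part of the sex of the mice in the Adam17 value was not tested. In bulk RNA, a larger share of cells with the transcript and more transcript per cell cannot be told apart.

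Adam9, a broadly expressed sheddase, stood at 38.8 and 36.8 CPM (WT) against 46.1 and 51.6 CPM (KO). The groups did not overlap, and the log2 fold change was 0.37 ± 0.11 (95% interval 0.09 to 0.65). Adam8, a protease that leukocytes carry, stood at 225 and 250 CPM (WT) against 262 and 292 CPM (KO). These groups did not overlap either, and replicate 2 was the higher library in both genotypes. The log2 fold change of Adam8 was 0.22 ± 0.10, and its 95% interval (-0.03 to 0.48) held 0. Macrophages also express Adam8 and Adam9, and the summed macrophage and dendritic markers given above were highest in WT replicate 1, where Adam8 was lowest, and lowest in KO replicate 2, where Adam8 was highest. The epithelial keratins Krt8 and Krt19 and the B and plasma cell sum were highest in KO replicate 2, as were Adam17, Adam8 and Adam9. The part of these cells in the values of the 3 genes was not tested.

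Adam10 and Adam19 had nearly equal levels in both genotypes. Adam10, the protease of Notch receptors, stood at 88.8 and 75.5 CPM (WT) against 90.3 and 76.8 CPM (KO), so the libraries differed by replicate number and hardly by genotype. Its log2 fold change was 0.02 ± 0.13 (95% interval -0.31 to 0.36). Adam19, a member of the meltrin group, had the narrowest interval of the 7. It stood at 276 and 276 CPM (WT) against 271 and 285 CPM (KO), and its log2 fold change was 0.01 ± 0.08 (95% interval -0.20 to 0.22). The upper bounds of Adam10 and Adam19, 0.36 and 0.22, both lay below the 0.59 fitted for Adam17. The genes were chosen with these values known, so this is a description.

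Adam15 and Rhbdf2 were the members with the fewest counts. Adam15, a disintegrin protease that also binds integrins, stood at 17.4 and 20.9 CPM (WT) against 20.5 and 22.4 CPM (KO), with overlapping groups. Its log2 fold change was 0.16 ± 0.13 (95% interval -0.18 to 0.50). It was 0.30 with edgeR when WT replicate 2 was left out and 0.034 with edgeR without WT replicate 1. Rhbdf2, which encodes the inactive rhomboid iRhom2 needed for ADAM17 maturation in immune cells, stood at 17.9 and 18.6 CPM (WT) against 19.6 and 21.9 CPM (KO). The groups did not overlap, and the log2 fold change was 0.18 ± 0.11 (95% interval -0.10 to 0.47).

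**Figure D1:**
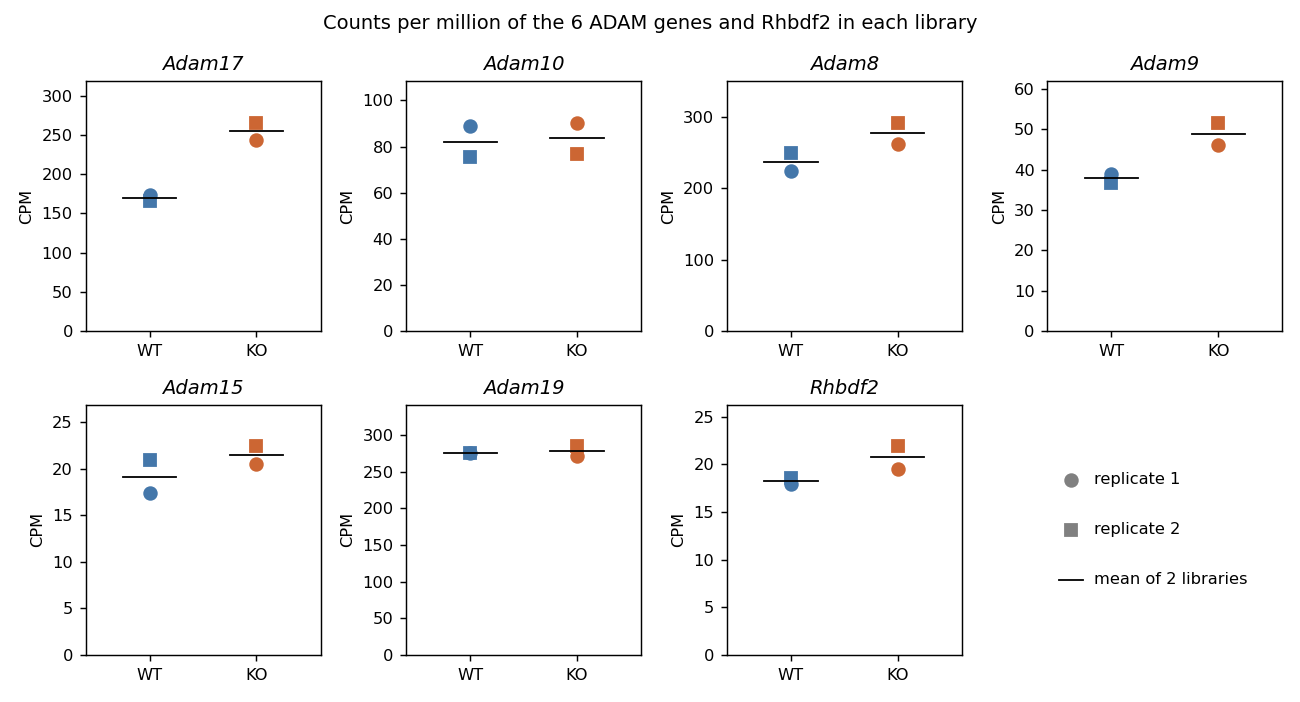
Level of each gene in CPM (y axis, from 0, own scale per panel) in the WT and KO libraries (x axis), with replicate 1 as circles, replicate 2 as squares and the mean of the 2 libraries as a line. Adam17 had 174 and 166 CPM (WT) against 244 and 266 CPM (KO), while Adam19 had 276 and 276 CPM (WT) against 271 and 285 CPM (KO).

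**Figure D2:**
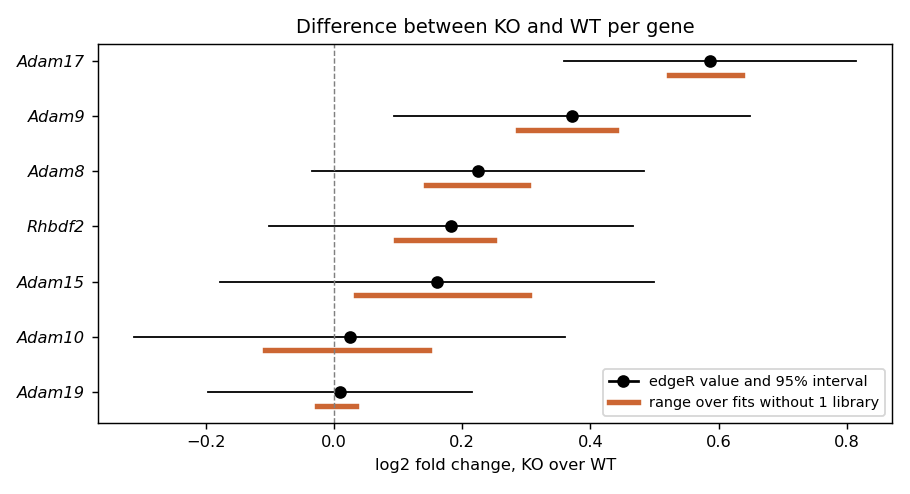
Log2 fold change of KO over WT (x axis) for each gene (y axis), with the 95% interval of edgeR as a thin line and the range over the edgeR and DESeq2 fits that leave out 1 library as a thick line. The value of Adam17 was 0.59 (0.36 to 0.81), and the lowest, that of Adam19, was 0.01 (-0.20 to 0.22).

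All 7 log2 fold changes were above 0, with a median of 0.18. Over all genes tested, 7424 of 14274 were above 0. The KO and WT libraries did not overlap in 4 of the 7 genes, all with higher KO values. This holds for 27% of all genes tested, 13.5% with higher and 13.4% with lower KO values. The quasi-likelihood test of edgeR over all genes called 0 of the 7 at an adjusted p under 0.05 (0% of all genes), and 2 of the 7, Adam17 and Adam9, had an unadjusted p under 0.05 with a higher KO level (1.64% of all genes). Among the members DESeq2 called Adam17 alone (adjusted p = 8.02e-04), against 0.267% of all genes with an adjusted p, and limma-voom called 0 of the 7 (0% of all genes). In the authors' deposited table Adam17 had an adjusted p of 0.0256 and the other 6 genes had 0.889. Among all genes listed there, 0.344% lay under 0.05. The DESeq2 call of Adam17 was lost without any one library, with adjusted p of 0.145 and 0.499 after leaving out WT replicate 1 or 2, and of 0.163 and 1.00 after leaving out KO replicate 1 or 2. The log2 fold change of Adam17 stayed between 0.52 and 0.64 in these fits and in those of edgeR without 1 library. These calls were part of the reason to choose the genes and add no evidence.

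Ratios of counts within a library do not depend on the scaling between libraries. Adam17 counts per Adam10 count were 1.96 and 2.19 in WT and 2.70 and 3.46 in KO. Per Adam19 count they were 0.630 and 0.600 in WT and 0.899 and 0.933 in KO, and per Adam8 count 0.774 and 0.663 in WT and 0.930 and 0.909 in KO. Per Adam9 count they were 4.48 and 4.50 in WT and 5.29 and 5.15 in KO, the smallest relative step, since Adam9 was also higher in KO. In each of the 6 ratios, those to Adam15 and Rhbdf2 included, both KO libraries lay above both WT libraries. All 6 share the Adam17 count, whose own groups did not overlap, so they are not separate observations. Adam17 thus took a larger part of the counts of the 7 genes in KO, 25.6% and 26.2%, than in WT, 20.8% and 19.6%. These parts sum to the whole, so that of Adam19 was smaller in KO (28.4% and 28.0%) than in WT (32.9% and 32.8%) at a nearly equal level of Adam19. The summed level of the 6 members other than Adam17 was 663 and 678 CPM (WT) against 710 and 750 CPM (KO).

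**Figure D3:**
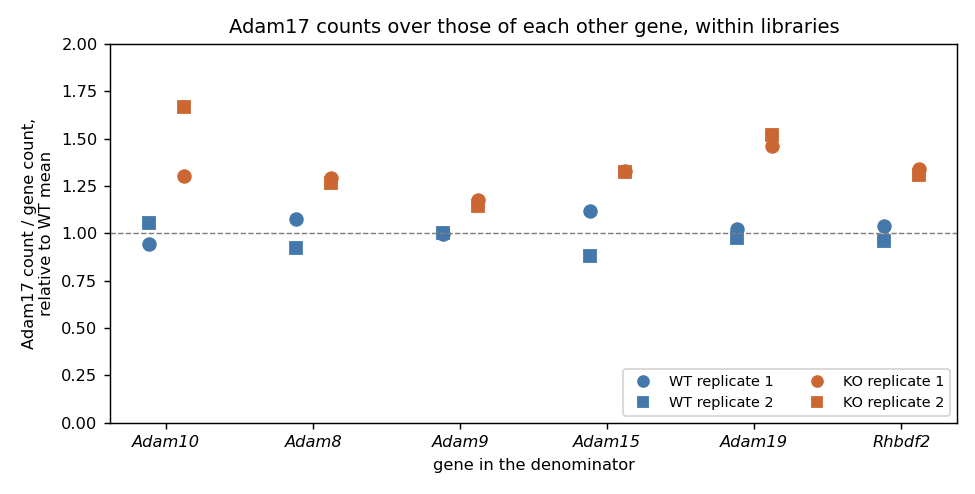
Count of Adam17 divided by the count of each other gene in the same library, relative to the mean of the 2 WT libraries (y axis, from 0), by gene in the denominator (x axis), with circles for replicate 1 and squares for replicate 2. In the 6 ratios shown, which share the Adam17 count, the KO libraries lie above the WT libraries, for Adam10 with count ratios of 2.70 and 3.46 in KO against 1.96 and 2.19 in WT.

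Adam17 lies on chromosome 12 from 21329370 to 21379493 (minus strand, mm9), and its end is 14.8 Mb from the nearer end of Ahr on the same chromosome. Its annotated span overlaps that of Iah1, an esterase gene on the opposite strand, by 97 bases at their tails. The sources used here do not say whether counting used strand. Iah1 had 303 and 824 counts in WT and 414 and 870 in KO, few beside those of Adam17. No other member overlaps another gene row.

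The genes next to Adam17 went both ways. Of the 5 tested genes on either side, 6 had a log2 fold change above 0 and 4 below, with a median of 0.01. Not all lay close to Adam17. Ywhaq started 66.6 kb from the start of Adam17, but the next tested gene beyond it, Gm16372, started at 3849 kb and the last, Klf11, at 4007 kb. Iah1 had 0.31 ± 0.15, and on the far side Ywhaq, which encodes an adaptor of the 14-3-3 group, had 0.01 ± 0.10. Cpsf3, a nuclease of messenger RNA 3' end processing, had -0.26 ± 0.10 with 70.3 and 76.2 CPM (WT) against 61.1 and 61.3 CPM (KO), and it alone of the 10 had an unadjusted p under 0.05 (edgeR). The lowest of the 10 was Zfp125 with -1.07 ± 0.46, a gene at 1.29 CPM in WT. None of the 10 was called by edgeR or DESeq2.

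Between Adam17 and Ahr lay 44 tested genes, 22 with a value above 0 and 22 below, with a median of -0.01. In that stretch edgeR called 0 genes, where 0 higher and 3 lower genes had an unadjusted p below 0.05 (1.21% of all genes were lower by that measure), and DESeq2 called 1, Prps1l1, which was singled out after its values were seen. Prps1l1, a relative of phosphoribosyl pyrophosphate synthetase, had 20 and 37 counts in WT and 0 in both KO libraries, where 3 counts would be 0.0978 and 0.0568 CPM. In the stretch of the same length beyond Ahr, 9 of 21 tested genes were above 0, and neither tool called any of them, with 0 at an unadjusted p under 0.05.

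**Figure D4:**
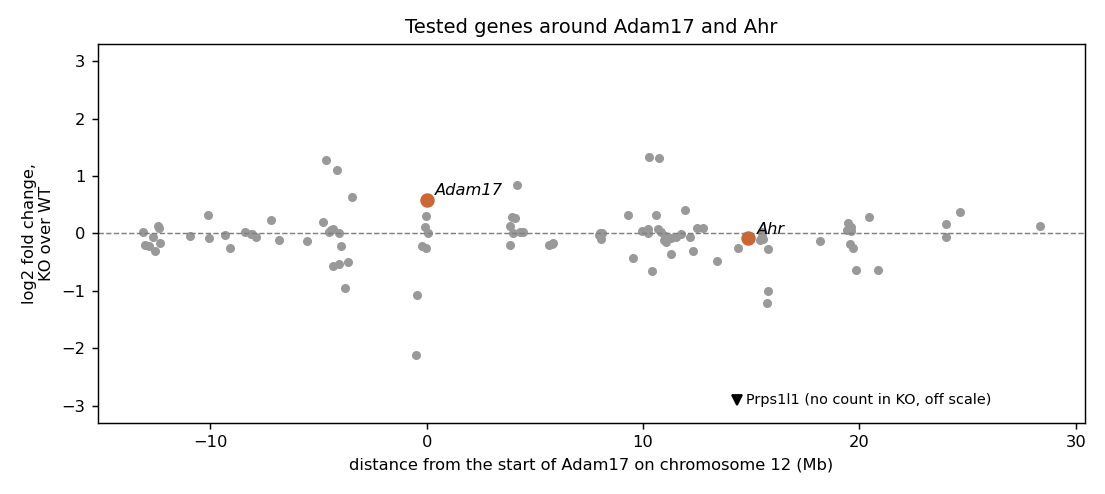
Log2 fold change of KO over WT (y axis) of the tested genes by the distance of their start from that of Adam17 on chromosome 12 in Mb (x axis), with Adam17 and Ahr marked and Prps1l1, which had 0 counts in KO, drawn as a triangle at the edge. Values near Adam17 lie on both sides of 0, with Iah1 at 0.31, Ywhaq at 0.01 and Cpsf3 at -0.26.

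Since the comparison removes Ahr, the stretch before the transcription start of Adam17 was read for GCGTG, the core of the DNA element that Ahr binds with Arnt. The 250 bases upstream are shown for Adam17 and for Adam10, the most studied related sheddase, from the RefSeq promoter table of GRCm38.p6, a build other than that of the counts. Capitals mark the core on either strand, where it reads CACGC if it lies on the opposite one. The Adam17 stretch is chr12:21373633-21373882 (minus strand) and the Adam10 stretch chr9:70678732-70678981 (plus strand).
Adam17: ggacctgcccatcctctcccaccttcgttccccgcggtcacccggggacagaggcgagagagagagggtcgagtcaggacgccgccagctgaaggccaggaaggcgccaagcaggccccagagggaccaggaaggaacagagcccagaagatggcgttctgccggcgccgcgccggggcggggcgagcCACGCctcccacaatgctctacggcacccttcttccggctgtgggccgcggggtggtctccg
Adam10: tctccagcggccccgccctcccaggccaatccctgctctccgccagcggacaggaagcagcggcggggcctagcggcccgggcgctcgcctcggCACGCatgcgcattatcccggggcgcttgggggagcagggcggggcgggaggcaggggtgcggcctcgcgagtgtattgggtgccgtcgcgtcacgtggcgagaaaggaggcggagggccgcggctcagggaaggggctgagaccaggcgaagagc
Each stretch held the core once, on the strand opposite to the gene, 58 to 62 bases before the start in Adam17 and 152 to 156 bases before it in Adam10. Of the members, 5 had stretches in the table, 7 stretches in all, and 4 of these 5 genes had a core in at least one (Adam17, Adam10, Adam15 and Adam19). The core is common, since 28.2% of 32851 stretches of this length held it on either strand. That share is per stretch, while the 4 of 5 is per gene and Adam19 had 3 stretches, so they are not like measures. G and C made up 70.4% of the Adam17 stretch and 74.0% of the Adam10 stretch, and the share of all stretches was not matched for this. The longer form TNGCGTG, which contains the core, was in 0 of the 7 stretches and in 4.10% of all. A match to letters is not a binding site, and whether the core plays a part in the level of either gene was not tested.

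The other genes of the shedding pathway were described by 11 lists with 134 genes, of which 131 were found and 97 tested. Among these 97 edgeR with genotype as the only term called 0 genes at an adjusted p under 0.05, and DESeq2 and limma-voom called 0 of them too. With edgeR 4 had an unadjusted p under 0.05 with a higher KO level (1.64% of all genes) and 0 with a lower one. Of the 97, 60 were above 0 with a median log2 fold change of 0.07, beside 0.01 over all genes. The KO and WT libraries did not overlap in 21 of the 97, 14 with higher and 7 with lower KO values (13.5% and 13.4% of all genes).

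The list of iRhom partners and of genes that act on ADAM17 or its trafficking, which leaves out the member Rhbdf2, showed little difference. None of the 9 genes of this list had an unadjusted p under 0.05, and 5 were above 0 with a median of 0.03. Frmd8, which encodes the protein iTAP that stabilises the complex of iRhom and ADAM17, stood at 124 and 135 CPM (WT) against 129 and 120 CPM (KO). The log2 fold change was -0.05 ± 0.10. Rhbdf1, the relative of Rhbdf2, was low at 3.31 and 3.17 CPM (WT) against 3.03 and 2.01 CPM (KO). Mapk14, the p38 kinase that can act on ADAM17, had 0.14 ± 0.09. Of the TspanC8 tetraspanins, the partners of ADAM10, 4 of 6 were tested. Tspan14 had the most counts of them, with 89.9 and 89.5 CPM (WT) against 115 and 99.3 CPM (KO). The groups did not overlap for Tspan14, whose log2 fold change was 0.26 ± 0.11 and did not pass edgeR (adjusted p = 1.00).

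Among enzymes and inhibitors around the proteases edgeR with genotype as the only term gave 0 genes an unadjusted p under 0.05. Furin, the convertase that removes the prodomain of ADAM proteases, had 528 and 616 CPM (WT) against 572 and 776 CPM (KO), with overlapping groups and a log2 fold change of 0.24 ± 0.17. Pcsk7, another convertase, had 0.00 ± 0.10. Timp3, the tissue inhibitor of ADAM17, stood at 2.57 and 3.41 CPM (WT) against 3.19 and 7.30 CPM (KO), so KO replicate 2 alone lay above both WT libraries. Its log2 fold change was 0.81 ± 0.43. Stromal and endothelial markers (7 of 7 found) summed to 118 and 168 CPM (WT) against 114 and 174 CPM (KO), also with the highest value in KO replicate 2. Most of that sum was Pecam1, with 107 and 113 CPM (WT) against 105 and 107 CPM (KO). Col3a1 had 5.55 and 37.8 CPM (WT) against 4.01 and 44.8 CPM (KO). The part of stromal and endothelial cells in the Timp3 value was not tested. Timp2 was more even, at 101 and 90.1 CPM (WT) against 107 and 86.9 CPM (KO). The 7 tested genes of gamma-secretase and the related signal peptide peptidases, which cut the stubs that shedding leaves, ran from -0.09 to 0.11, with Ncstn at -0.09 ± 0.11.

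The 4 pathway genes with an unadjusted p under 0.05 were all among the 11 cytokine, TNF and TNF receptor substrates, of which 8 were above 0 with a median of 0.17. Over all genes, 1.64% had such a p in edgeR with a higher KO level. The lists were chosen with earlier results of these data known. Tnfrsf1a, the type 1 TNF receptor, stood at 23.2 and 24.5 CPM (WT) against 33.9 and 31.7 CPM (KO). The log2 fold change was 0.45 ± 0.10. Il1r2, the decoy receptor of IL-1, stood at 78.4 and 70.7 CPM (WT) against 98.3 and 96.9 CPM (KO), with 0.39 ± 0.10. Tnfsf11, the gene of RANKL, stood at 135 and 159 CPM (WT) against 186 and 203 CPM (KO), with 0.40 ± 0.11. Fasl, the death ligand, had 0.30 ± 0.10 and was named after its values were seen. In these 4 genes both KO libraries lay above both WT libraries (13.5% of all genes tested), a pattern that picking genes by p favours. The adjusted p of edgeR with genotype as the only term was 1.00 in each. Tnf itself, the substrate after which ADAM17 was named, stood at 87.4 and 76.5 CPM (WT) against 96.9 and 88.8 CPM (KO), with 0.18 ± 0.11. Tnfrsf1b, the type 2 TNF receptor of Treg cells, stood at 1542 and 1308 CPM (WT) against 1485 and 1281 CPM (KO), with -0.04 ± 0.13.

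The adhesion and checkpoint substrates, 18 tested, ran from -0.59 to 1.36 with a median of 0.05, and edgeR gave none of them an unadjusted p under 0.05. Cdh1, the gene of E-cadherin, had the highest value, 1.36 ± 0.60 at 0.261 and 0.628 CPM (WT) against 0.847 and 1.51 CPM (KO). Il6ra and Lag3, substrates of ADAM17 or ADAM10 on T cells that were named after their values were seen, had log2 fold changes of 0.17 ± 0.12 and 0.00 ± 0.16. Cd44, a hyaluronan receptor, had -0.08 ± 0.15, and Icam1, an adhesion ligand, had 0.07 ± 0.08. Areg, the EGF receptor ligand that tissue Treg cells make for repair, stood at 252 and 273 CPM (WT) against 277 and 290 CPM (KO), with 0.11 ± 0.09. Notch1 and Notch2 had -0.03 ± 0.09 and -0.04 ± 0.09. Their 12-gene list ran from -0.37 to 0.81, the latter for Notch3, with 7 values above 0 and a median of 0.04.

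Most of the rest of the ADAM family had few counts. Of 26 other ADAM rows, 18 were not tested, with 1 to 49 counts over the 4 libraries. The 8 tested had a median of -0.19, with 3 above and 5 below 0 and 0 at an unadjusted p under 0.05. Adam12, a protease of the same meltrin group as Adam19, stood at 37.2 and 41.1 CPM (WT) against 35.2 and 33.4 CPM (KO), with -0.19 ± 0.11. Adamdec1, a secreted relative found in gut mononuclear phagocytes, had -0.23 ± 0.26. Of 15 tested ADAMTS genes, the secreted relatives that cut matrix proteins, 9 were above 0. The 2 with the most counts lay lower in both KO libraries than in both WT libraries, at values that did not pass (edgeR adjusted p = 1.00 for both). Adamts6 had 146 and 138 CPM (WT) against 132 and 120 CPM (KO), with -0.17 ± 0.09, and Adamts10 had 136 and 153 CPM (WT) against 128 and 131 CPM (KO), with -0.16 ± 0.10.

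**Figure D5:**
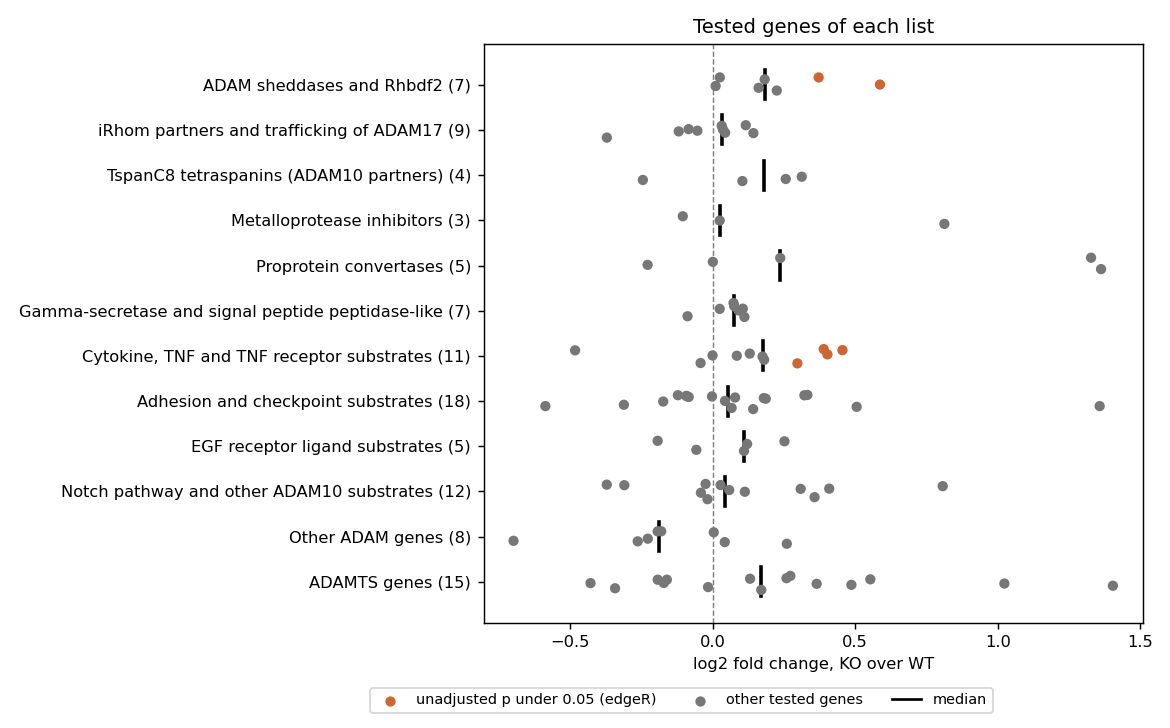
Log2 fold change of KO over WT (x axis) of the tested genes of each list (y axis, number of genes in parentheses), with the median as a black line and genes with an unadjusted p under 0.05 in edgeR in orange. The 4 orange genes outside the top row are Tnfrsf1a (0.45), Tnfsf11 (0.40), Il1r2 (0.39) and Fasl (0.30).

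The 3 tested genes whose centred log2 CPM over the 4 libraries lay nearest to those of Adam17, by Euclidean distance, were Tmem51 (0.05), Arhgef26 (0.08) and Clic5 (0.09). All had few counts, and the mean of Arhgef26, which had the most, was 2.19 CPM (WT) against 3.27 CPM (KO). With 4 libraries such likeness is a description.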

How the data were processed

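Barcoded total RNA libraries, depleted of ribosomal RNA, were read as single-end reads per the labels' protocols. The values used were the whole-number gene counts deposited by the authors, not normalized, and the adjusted p-value per gene in the authors' deposited table, whose comparison is not stated and which was read as KO against WT. TopHat2, DESeq and mm9 are named in the submitters' processing notes without versions, and which tool and annotation were used for counting, and whether by strand, is not given in the sources used here. Of 8 samples, the 4 from ATAC-seq were not used here. The members and gene lists were chosen with earlier results of these data known.

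Genotypes were compared with edgeR 4.0.16 (R 4.3.3), a quasi-likelihood F-test on genotype alone, filterByExpr (14274 genes kept, all 7 members among them, 4917 not tested), TMM scaling and Benjamini-Hochberg adjustment over all genes tested at 0.05. CPM are counts per 1000000 of the tested total times the TMM factor. DESeq2 1.42.0 (17996 genes with an adjusted p), limma 3.58.1 (voom), DESeq2 size factors, no filter, the replicate number as a block and leaving out each library were alternatives. Standard errors are those of the edgeR fit, with 2 residual degrees of freedom. Scripts were tested on simulated data. Of each list, genes named are the 3 of highest level and the 2 of lowest p, where reported, beside the neighbours of Adam17, Ahr and the 3 nearest patterns, and others are marked where they appear. Distances in log2 CPM used a prior count of 2. A floor of 3 counts stands for a count of 0 and covers counting error only.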

Additional observations from a re-analysis of the deposited data

How the results depend on the processing

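In the 13 alternatives to edgeR with genotype as the only term, the log2 fold changes of Adam17, Adam8, Adam9, Adam15 and Rhbdf2 stayed above 0, while that of Adam10 was below 0 in 4 and that of Adam19 in 2, all fits without 1 library. Without 1 library they ran from 0.52 to 0.64 for Adam17, from 0.29 to 0.44 for Adam9, from 0.14 to 0.30 for Adam8, from 0.10 to 0.25 for Rhbdf2, from 0.034 to 0.30 for Adam15, from -0.11 to 0.15 for Adam10 and from -0.027 to 0.035 for Adam19. The count of called genes was 0 in edgeR, 52 without the low count filter, 48 in DESeq2 and 458 with the replicate number as a block, and without 1 library it ran from 0 to 2 in edgeR and from 7 to 29 in DESeq2. Without the filter edgeR called Adam17 (adjusted p = 0.0189). The labels do not say that same-numbered libraries share an animal or batch, although their deviations from the group means correlated across genes at 0.641. The fit with that block has 1 residual degree of freedom and called 3 of the 7 genes, Adam17 (adjusted p = 9.23e-08), Adam9 (0.00508) and Adam8 (0.0361), and 7 of the 97 pathway genes tested (3.21% of all genes). Of these 7, Tnfsf11 (7.57e-05), Il1r2 (3.80e-04), Havcr2 (0.00109), Tnfrsf1a (0.00174), Timp3 (0.0268) and Tspan14 (0.0389) were higher in KO and Csf1r (0.00396) lower, named after their values were seen where the rule does not take them. The adjusted p of Adam17 ran from 9.23e-08 to 1.00 over the alternatives. Where 1 library is left out, the lone library of that genotype is assumed to vary like the others. Plain library totals in place of TMM moved the mean of Adam19 in WT to 279 CPM.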

Other observations

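Besides Ddx3y, other genes of the Y chromosome, looked at after their values were seen, varied between the libraries. Eif2s3y stood at 17.4 and 35.2 CPM (WT) against 39.7 and 65.5 CPM (KO), and Uty at 38.7 and 29.6 CPM (WT) against 42.0 and 52.0 CPM (KO). The groups did not overlap in these genes, and they did in Kdm5d with 11.9 and 12.9 CPM (WT) against 11.0 and 26.4 CPM (KO). In the authors' deposited table the adjusted p was 0.00290 for Ddx3y and 0.00114 for Eif2s3y. It was 0.626 there for Uty and 0.543 for Kdm5d. The share of male animals behind each library is unknown here, and its part in the Adam17 value was not tested.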
